A study of Rattus norvegicus with 12 samples.

Results

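The genes described are 10 that act on collagen before and after it leaves the cell: the chaperone Serpinh1, the prolyl 4-hydroxylase subunits P4ha1, P4ha2 and P4ha3, the lysyl hydroxylases Plod1 and Plod2, and the lysyl oxidases Lox, Loxl1, Loxl2 and Loxl3. They were taken by symbol from a table of 40154 genes of the rat, measured by RNA sequencing of the urinary bladder. All 10 were listed, and all 10 were among the 17687 genes that passed the filter on low counts. The bladders came from female Wistar rats aged 10 to 12 weeks, at day 7, day 14 or day 28 after complete transection of the spinal cord at segment T10 (T9-T10 in the series' design text), or from rats labelled normal controls, for which no sham operation is named. There were 3 libraries in each of the 4 groups, and n = 3 for every mean below. The design text speaks of 20 rats for the 12 libraries, and the labels do not say how many went into each, so the p-values measure the spread between these libraries, which may in part be technical.

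Collagen chains are modified in the endoplasmic reticulum, where prolyl 4-hydroxylases make the triple helix stable, lysyl hydroxylases prepare lysines for crosslinking, and Serpinh1 (HSP47) binds the folded helix until it is exported. Outside the cell, lysyl oxidases oxidise lysines of collagen and elastin, and the products join into covalent crosslinks that set the stiffness of the matrix. The bladder wall relies on this matrix for compliance, and fibrosis with stiffening is a known feature of the neurogenic bladder after cord injury.

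Promoter sequences are shown for 4 of the genes, the chaperone and 3 hydroxylases, because they hold letters known from the regulation of these enzymes elsewhere: the heat shock element, bound by heat shock factors at the Serpinh1 gene, and the core of the hypoxia response element, bound by the hypoxia-inducible factors that induce P4ha1, P4ha2 and Plod2 in cultured cells. Each is the RefSeq sequence of 300 bases around the annotated start of the gene on rat build GRCr8, written 5′ to 3′ on the strand of the gene. Capitals mark matches on either strand to ACGTG, the hypoxia response core, or to the heat shock element, written here as TTC, GAA and TTC with 2 bases of any kind between them. The Serpinh1 promoter is at chr1:163062927-163063226 on the minus strand, that of P4ha1 at chr20:27844796-27845095, that of P4ha2 at chr10:38743644-38743943 and that of Plod2 at chr8:101964068-101964367, the last 3 on the plus strand.
Serpinh1: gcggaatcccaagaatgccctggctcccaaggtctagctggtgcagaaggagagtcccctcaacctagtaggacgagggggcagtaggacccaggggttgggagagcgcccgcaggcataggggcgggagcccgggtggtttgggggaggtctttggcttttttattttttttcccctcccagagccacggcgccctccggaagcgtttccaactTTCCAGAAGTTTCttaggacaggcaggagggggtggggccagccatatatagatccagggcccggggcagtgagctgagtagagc
P4ha1: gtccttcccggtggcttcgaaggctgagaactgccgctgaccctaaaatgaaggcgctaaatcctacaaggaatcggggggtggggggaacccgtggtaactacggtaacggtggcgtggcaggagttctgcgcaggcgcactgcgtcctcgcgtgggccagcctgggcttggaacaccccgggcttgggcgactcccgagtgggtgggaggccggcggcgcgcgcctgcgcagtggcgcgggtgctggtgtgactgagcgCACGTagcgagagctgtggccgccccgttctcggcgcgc
P4ha2: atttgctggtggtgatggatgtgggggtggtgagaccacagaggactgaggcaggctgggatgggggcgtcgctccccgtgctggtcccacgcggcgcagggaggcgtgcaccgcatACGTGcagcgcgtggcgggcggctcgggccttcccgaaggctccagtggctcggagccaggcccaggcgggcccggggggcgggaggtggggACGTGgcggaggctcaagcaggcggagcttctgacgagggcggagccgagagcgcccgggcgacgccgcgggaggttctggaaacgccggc
Plod2: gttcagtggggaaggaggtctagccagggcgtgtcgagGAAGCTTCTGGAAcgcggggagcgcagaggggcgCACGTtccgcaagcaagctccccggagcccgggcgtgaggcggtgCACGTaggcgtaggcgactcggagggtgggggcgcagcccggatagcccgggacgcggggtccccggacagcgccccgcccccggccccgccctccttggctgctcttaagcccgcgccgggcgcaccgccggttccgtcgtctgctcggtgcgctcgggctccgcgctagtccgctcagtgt
The heat shock element was in the promoters of Serpinh1 (at -35 from the start) and Plod2 (at -212), which is 2 of the 8 members with a promoter sequence, and in 0.798% of 33465 promoters of the same length. ACGTG was in 3 of the 8, at 11 bases past the start in P4ha1, at -133 and -41 in P4ha2 and at -178 and -133 in Plod2, and in 19.3% of all promoters. Of the other letters searched on both strands, CATTCC (the MCAT element) was in Loxl1 and Loxl3 and in 14.2% of all promoters. TGANTCA (the AP-1 site) was in none of the 8 and in 7.33% of all, and the CArG box was in none of the 8 and in 1.64% of all. The motifs were chosen with these sequences in view, a match is a description of the letters in the window, and promoters of Lox and Loxl2 are not shown here.

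Libraries held 26.3 to 30.7 M counts. Markers of smooth muscle (summed 9908 to 41540 CPM, counts scaled to library size) and urothelium (3258 to 5981 CPM) were high in every library, and 5 markers of cartilage and bone summed to 0.400 to 2.75 CPM. Haemoglobin transcripts made up 2.895% of counts in day-7 replicate 3, against 0.1564% and 0.3712% in the other day-7 libraries. Libraries of a group differed from each other by more than counting noise.

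At day 7, transcripts of 8 of the 10 enzymes were higher than in controls, with log2 fold changes of 0.87 to 3.36, and none was lower. The share of all tested genes called higher in this comparison was 15.6%, and the median log2 change was 1.67 over the 10 enzymes and -0.00571 over all tested genes. The largest changes were in P4ha3, Lox, Loxl1, Plod2 and Loxl2. P4ha2 and Loxl3 did not pass the test. Without control replicate 1, or without day-7 replicate 2 or 3, 6 enzymes were called, with Serpinh1 and P4ha1 lost. With a library left out, 1930 to 2798 of all genes were called higher, against 2757 with all libraries. In 9 of the 10 the CPM of all 3 day-7 libraries lay above all 3 controls, against 23.6% of all genes tested. In bulk tissue, more cells of a type and more RNA per cell cannot be told apart.

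**Figure D1:**
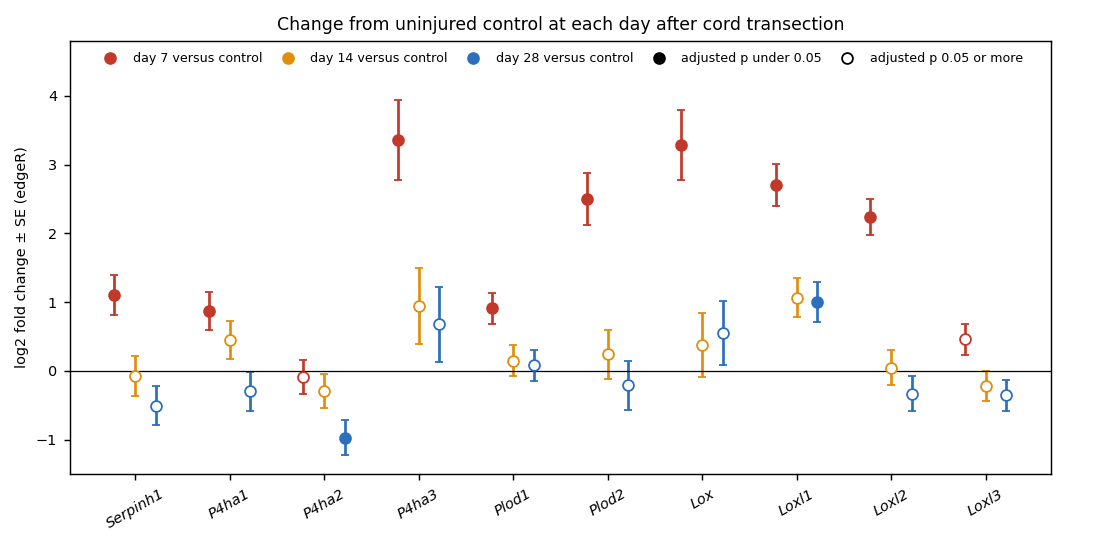
Log2 fold change of each enzyme against control from edgeR (vertical axis, points, with bars of ± 1 SE) at day 7, day 14 and day 28, filled where the adjusted p was under 0.05. Filled day-7 points stand between 0.87 and 3.36, while day 14 has no filled point and day 28 has only Loxl1 above and P4ha2 below the line.

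At day 14 and day 28 the levels of most enzymes overlapped those of controls, while Loxl1 lay above every control at both days. No member was called at day 14 in either direction with edgeR (1 at an unadjusted p under 0.05, and 1 with DESeq2, Loxl1), where 1.45% of all tested genes were called higher and 0.995% lower. The median log2 change was 0.20 over the 10 enzymes and 0.00245 over all tested genes. At day 28, 1 member was higher (Loxl1) and 1 lower (P4ha2), where 11% of all tested genes were called higher and 7.51% lower, and the median was -0.25 over the enzymes and 0.000235 over all genes. With 10 members, counts of 0 or 1 are near the shares of all genes. CPM ranges were apart from the controls for 1 member above (Loxl1) and 1 below (Loxl3) at day 14 (11.5% and 13.2% of all genes), and for 1 above and 2 below at day 28 (20.9% and 19.6%).

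Serpinh1 (chr1:164301010-164308306, minus strand, on rn6), the chaperone that is specific for collagen, had 769, 1194 and 1053 TPM (transcript abundance per gene length, as deposited by the authors) at day 7, against 431, 564 and 548 TPM in controls. The 3 day-7 libraries all lay above the 3 controls, and the log2 fold change was 1.10 ± 0.29 (SE; adjusted p = 0.01672). The call was lost without control replicate 1 or without day-7 replicate 2 or 3 (adjusted p 0.05899 to 0.06963 without them, and 0.00112 to 0.0696 in the 12 alternatives). At day 14 it had 316, 641 and 545 TPM and at day 28 457, 398 and 256 TPM, values that overlap the controls. The log2 change against control was -0.07 ± 0.29 at day 14 (adjusted p = 0.9322) and -0.50 ± 0.29 at day 28 (adjusted p = 0.2552). It was the most abundant of the 10 in every group, and its range overlapped that of no other member.

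**Figure D2:**
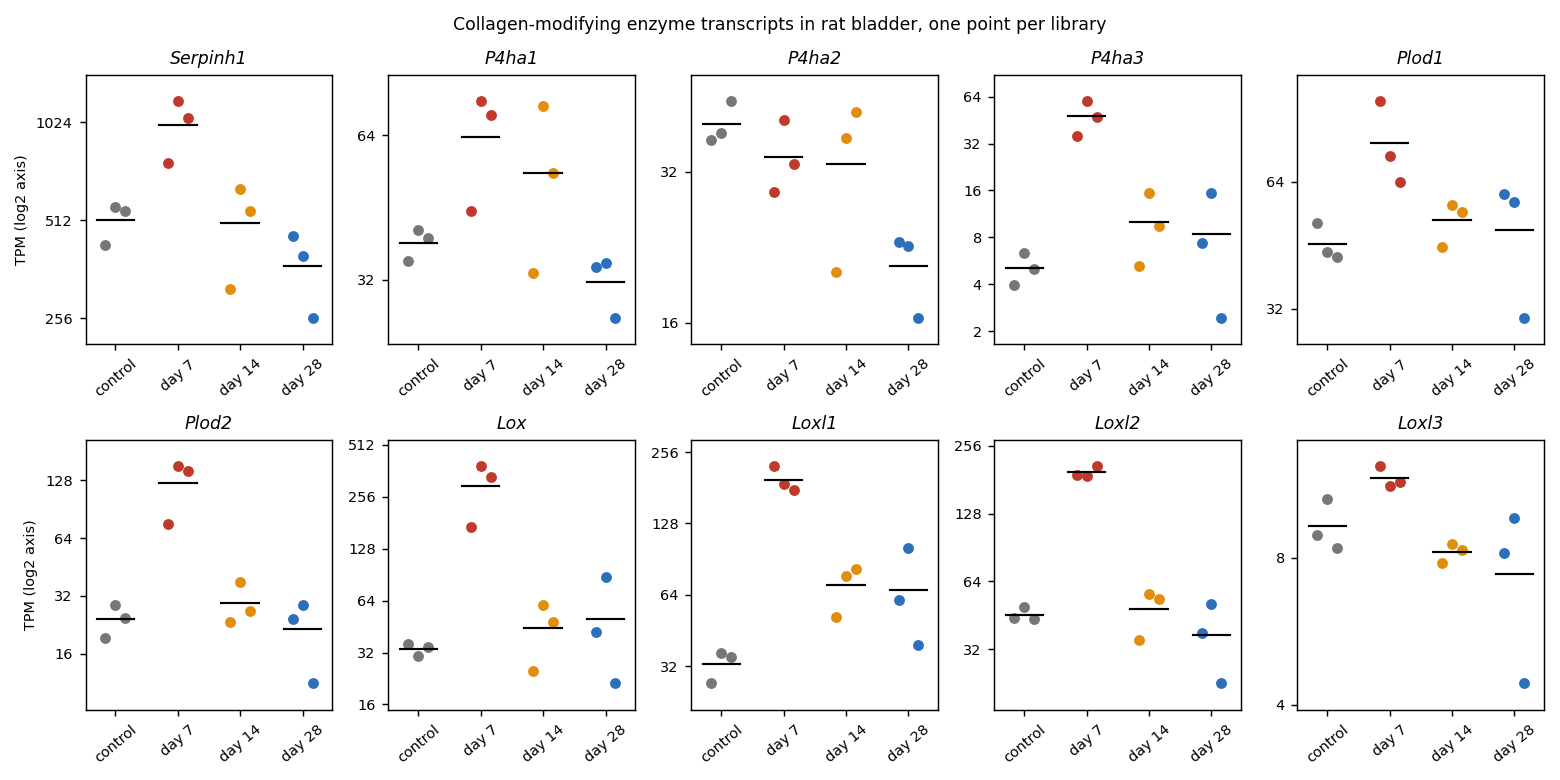
TPM of each enzyme (vertical axis, log2 scale) in every library, by group, with replicates 1 to 3 from left to right and a line at the group mean. In 9 panels the 3 day-7 points stand above all 3 control points, the exception being P4ha2, and in every panel the lowest day-28 point is replicate 3.

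The 3 alpha subunits of prolyl 4-hydroxylase, each of which carries the active site and pairs with the beta subunit P4hb, had log2 changes between -0.09 and 3.36 at day 7. P4ha3, known for its low level in most tissues, had 35.7, 60.3 and 47.5 TPM at day 7, against 3.94, 6.39 and 4.99 TPM in controls, and the groups were far apart. The log2 fold change of P4ha3 was 3.36 ± 0.58 (adjusted p = 0.001833), the largest of the 10. P4ha1, the main isoform of most cells, had 44.5, 75.5 and 70.6 TPM at day 7, against 35.0, 40.6 and 39.1 TPM in controls. The P4ha1 groups were apart by a small margin, since day-7 replicate 1 lay close to the highest control. Its log2 fold change was 0.87 ± 0.28 (adjusted p = 0.03835), and the call was lost without any 1 control library or when day-7 replicate 2 or 3 was left out (adjusted p 0.08454 to 0.1385 without them, and 0.0114 to 0.139 in the 12 alternatives). P4ha2, the isoform prominent in chondrocytes and endothelial cells, had 29.1, 40.5 and 33.1 TPM at day 7, against 36.9, 38.1 and 44.3 TPM in controls. These overlapped, with a log2 difference of -0.09 ± 0.25 (adjusted p = 0.8284).

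Later, P4ha3 had 5.27, 15.4 and 9.46 TPM at day 14 and 7.35, 15.4 and 2.42 TPM at day 28. Both groups overlapped the controls, and the log2 differences from control were 0.94 ± 0.55 (adjusted p = 0.4075) and 0.68 ± 0.55 (adjusted p = 0.4311). P4ha1 had 33.1, 73.6 and 53.5 TPM at day 14 and 34.0, 34.6 and 26.6 TPM at day 28. The day-14 values of P4ha1 were spread around the controls (log2 difference 0.45 ± 0.28, adjusted p = 0.4398), and the day-28 values all lay just below the controls without passing the test (log2 difference -0.30 ± 0.28, adjusted p = 0.504). P4ha2 had 20.2, 37.3 and 42.1 TPM at day 14 and 23.1, 22.8 and 16.4 TPM at day 28. The P4ha2 difference at day 14 was -0.29 ± 0.25 (adjusted p = 0.5948). At day 28 all 3 P4ha2 libraries lay below every control, and the gene fell by 0.97 on the log2 scale (SE 0.25, adjusted p = 0.02007). That fall was not called without control replicate 2 or 3 or without day-28 replicate 3 (adjusted p 0.05123 to 0.07464 without them, and 0.00201 to 0.0746 in the 12 alternatives).

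Of the lysyl hydroxylases, Plod2, which hydroxylates the telopeptide lysines that give rise to pyridinoline crosslinks, had a log2 fold change at day 7 of 2.50, and Plod1, which acts on lysines of the helix, one of 0.91. The difference between the 2 genes was not tested. Plod3, a lysyl hydroxylase not among the members, was also higher at day 7 (1.14 ± 0.22, adjusted p = 0.003187). Plod2 had 76.0, 152 and 144 TPM at day 7, against 19.3, 28.7 and 24.6 TPM in controls. Every day-7 library stood above every control, with replicate 1 the lowest of the 3, and the log2 fold change was 2.50 ± 0.37 (adjusted p = 0.0008104). Plod1 had 99.7, 73.5 and 63.8 TPM at day 7, against 51.0, 43.5 and 42.5 TPM in controls. Here replicate 1 was the highest of the day-7 libraries, the groups were again apart, and the log2 fold change was 0.91 ± 0.22 (adjusted p = 0.01193). At day 14, Plod2 had 23.3, 37.9 and 26.8 TPM and Plod1 44.9, 56.5 and 54.4 TPM. At day 28, Plod2 had 24.3, 28.8 and 11.2 TPM and Plod1 60.0, 57.4 and 30.4 TPM. All of these groups overlapped the controls, with log2 differences between -0.21 and 0.24 (adjusted p 0.7386 to 0.8399).

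Transcripts of Plod2 were also counted by isoform in a deposited table. In every library the longer isoform held as many counts as the gene, so reads of the shorter appear to be counted for both. The rat isoforms listed are 3672 and 3609 bases long, a difference of 63 bases in length. Counts of the shorter were 81.7%, 80.5% and 80.7% of those of the longer at day 7, against 83.4%, 81.7% and 83.0% in controls. They were 84.6%, 82.6% and 80.9% at day 14 and 81.8%, 81.9% and 81.8% at day 28. Because most reads appear to be counted for both isoforms, these values do not give the share of each isoform. They varied by little between libraries while the counts of the gene changed several-fold.

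Of the 4 lysyl oxidases among the 10 enzymes, 3 rose at day 7, by log2 fold changes of 2.23 to 3.29. Loxl4, a lysyl oxidase not among the 10, was also higher at day 7 (0.74 ± 0.20, adjusted p = 0.02124). Lox, the founding enzyme of the family, had 171, 386 and 334 TPM at day 7, against 35.6, 30.5 and 34.4 TPM in controls. Day-7 replicate 1 was the lowest of its group and still far above the controls, and the log2 fold change was 3.29 ± 0.51 (adjusted p = 0.0009684). Loxl1, which mice need to maintain elastic fibres, had 224, 187 and 176.5 TPM at day 7, against 27.1, 36.3 and 34.8 TPM in controls. The Loxl1 libraries of day 7 were close together and apart from the controls, with a log2 fold change of 2.70 ± 0.30 (adjusted p = 0.0002071). Loxl2, a crosslinker of collagen IV in basement membranes, had 190, 187 and 208 TPM at day 7, against 44.1, 49.1 and 43.5 TPM in controls. The 3 day-7 libraries of Loxl2 were close together, far above the controls, and its log2 fold change was 2.23 ± 0.26 (adjusted p = 0.0002456). Loxl3, which mice need for the palate and spine to form, had 12.3, 11.2 and 11.4 TPM at day 7, against 8.91, 10.6 and 8.39 TPM in controls. The Loxl3 groups did not overlap, but the log2 difference of 0.46 ± 0.22 did not pass the test (adjusted p = 0.1476). It did so with only the groups compared in the fit (adjusted p = 0.03281).

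The 3' end of Loxl3 on rn6 (113883713 on chromosome 4) overlaps that of Htra2, which lies on the opposite strand with its 3' end at 113883671. The overlap is short beside the 3573 bases of Loxl3. The totals were similar, 5574 counts for Loxl3 and 5017 for Htra2 over 12 libraries, and whether reads were counted by strand is not stated in the labels, so some reads in the overlap could belong to either gene. Lox also overlaps LOC681584 and Zfp474 on the opposite strand, which held 15 and 12 counts against 99020 for Lox.

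Loxl1 was the member whose level stayed above the controls. It had 51.5, 77.0 and 82.3 TPM at day 14, against 27.1, 36.3 and 34.8 TPM in controls, and the ranges did not overlap. The log2 difference of 1.07 ± 0.29 at day 14 did not pass the test (adjusted p = 0.07862), and it did so with DESeq2 (adjusted p = 0.006596), with no expression filter (0.0431), with only the groups compared in the fit (0.03851) and without day-14 replicate 1 (0.0476). In the 12 alternatives the adjusted p ran from 0.0066 to 0.25. Loxl1 had 60.7, 101 and 39.4 TPM at day 28, again above every control, and the log2 fold change was 1.00 ± 0.29 (adjusted p = 0.03267). Without day-28 replicate 2, the highest of its group, that change was 0.59 and no longer called (adjusted p = 0.1316). The call was also lost without any 1 control library (adjusted p 0.0722 to 0.1152) and with only the groups compared in the fit (0.05929), within a range of 0.00466 to 0.132 in the 12 alternatives.

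Of Lox, Loxl2 and Loxl3, none was called against control at the later days. Lox had 25.1, 60.3 and 47.9 TPM at day 14 and 42.2, 87.1 and 21.2 TPM at day 28, so that each group held libraries above and below the controls. Its log2 difference from control was 0.38 ± 0.47 at day 14 (adjusted p = 0.7403) and 0.55 ± 0.47 at day 28 (adjusted p = 0.4605). Loxl2 had 35.2, 56.1 and 53.3 TPM at day 14 and 37.9, 50.6 and 22.6 TPM at day 28, with log2 differences of 0.05 and -0.33 (adjusted p 0.9507 and 0.407). Loxl3 had 7.82, 8.52 and 8.30 TPM at day 14 and 8.19, 9.63 and 4.43 TPM at day 28, with log2 differences of -0.21 and -0.36 (adjusted p 0.6767 and 0.3003). At day 14 the Loxl3 values overlapped the controls in TPM (8.91, 10.6 and 8.39) but not in CPM, where they were 13.0, 14.8 and 14.2, against 15.4, 18.5 and 14.9 in controls.

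Set against day 7, 7 of the 10 enzymes were lower at day 14 and none higher, where 12% of all tested genes were lower and 7.59% higher. In 8 the ranges of CPM were apart, with day 14 below (19.2% of all genes). The log2 change was -2.91 ± 0.50 for Lox, -2.41 ± 0.55 for P4ha3, -2.26 ± 0.37 for Plod2, -2.19 ± 0.26 for Loxl2, -1.64 ± 0.29 for Loxl1, -1.17 ± 0.29 for Serpinh1 and -0.76 ± 0.22 for Plod1 (adjusted p 0.0004309 to 0.03402). Calls of Plod1 and Serpinh1 depended on single libraries: Plod1 was not called when any 1 of the 6 libraries was left out (adjusted p 0.05222 to 0.1246), nor Serpinh1 without day-7 replicate 2 or 3 or day-14 replicate 1 (0.05016 to 0.06383). P4ha1, P4ha2 and Loxl3 did not pass the test, with Loxl3 nearest to it (log2 difference -0.67 ± 0.22, adjusted p = 0.05303). Loxl3 was called with DESeq2 (0.02646), with a filter at a mean of 5 CPM (0.046) and with only the groups compared in the fit (0.01612).

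At day 28 all 10 enzymes were lower than at day 7 and none was higher, where 10.8% of all tested genes were lower and 7.89% higher. The ranges of CPM were apart in all 10 (18.2% of all genes). The median log2 change was -1.65 over the enzymes and 0.0083 over all genes. Log2 changes ran from -2.74 ± 0.50 for Lox (adjusted p = 0.004014) and -2.71 ± 0.38 for Plod2 (adjusted p = 0.001072) to -0.88 ± 0.25 for P4ha2 (adjusted p = 0.03017) and -0.81 ± 0.22 for Loxl3 (adjusted p = 0.02569). Without day-28 replicate 2 the changes of Lox and P4ha3 were larger, at -3.39 and -3.45. P4ha2 was not called without replicate 2 or 3 of either day (adjusted p 0.05702 to 0.1107), nor P4ha1 without day-7 replicate 2 or 3 or day-28 replicate 3 (0.05599 to 0.05731), nor Loxl3 without day-7 replicate 2 or 3 (0.0532 and 0.07683), nor Plod1 without day-7 replicate 1 (0.0704). With only the groups compared in the fit, Loxl3 (adjusted p = 0.0857) and Plod1 (0.08035) were not called either. Between day 28 and day 14 no member was called with edgeR or DESeq2 (2 at an unadjusted p under 0.05), where 3.13% of all tested genes were called higher and 1.22% lower, and all 10 ranges overlapped. The comparisons with day 7 share the 3 day-7 libraries, and those with control share the 3 controls.

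Within groups, the enzymes tended to be low or high in the same libraries. Replicate 1 of day 14 had the lowest TPM of its group for all 10 members, and replicate 3 of day 28 for all 10. Replicate 3 of day 28 also had the lowest summed smooth muscle markers of its group, 9908 CPM against 21530 and 16370 CPM in replicates 1 and 2. Replicate 1 of day 14 had the lowest fibroblast markers of its group, 1968 CPM against 3157 and 2462 CPM. Its smooth muscle markers were the middle value of the group, 24360 CPM against 29690 and 21920 CPM. The part of these differences in the enzyme levels was not tested. At day 7, replicate 1 was the lowest for 6 members (Serpinh1, P4ha1, P4ha2, P4ha3, Plod2 and Lox) and the highest for 3 (Plod1, Loxl1 and Loxl3). Without day-28 replicate 3, P4ha2 was not called against control and 8 of the 10 enzymes were lower than at day 7.

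The order of the levels per length (mean TPM) at day 7 was Serpinh1 (1005), Lox (296.7), Loxl1 (195.8), Loxl2 (195.1), Plod2 (123.9), Plod1 (79.0), P4ha1 (63.5), P4ha3 (47.8), P4ha2 (34.2) and Loxl3 (11.7). The 3 lysyl oxidases Lox, Loxl1 and Loxl2 overlapped one another and stood above Plod2, and from Plod2 to P4ha2 each member overlapped the next. At day 14 and day 28 Loxl1 was second to Serpinh1 (70.3 and 67.0 TPM) and overlapped the next. In controls, Serpinh1 averaged 514.3 ± 72.9 TPM (SD), followed by Plod1 (45.7), Loxl2 (45.6), P4ha2 (39.8), P4ha1 (38.2), Lox (33.5), Loxl1 (32.7) and Plod2 (24.2), and each of these 7 overlapped its neighbours. Loxl3 (9.29 TPM) and P4ha3 (5.11 TPM) stood below them in controls and apart from each other.

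The make-up of each enzyme family is given as shares of the TPM summed over the family. P4ha3 made up 32.7% ± 1.41 (SD) of the 3 alpha subunits at day 7, against 6.12% ± 1.23 in controls, and P4ha2 made up 23.8% ± 2.49 at day 7, against 47.9% ± 2.75 in controls. The summed TPM of the alpha subunits was 145.6 ± 33.8 at day 7, against 83.1 ± 6.50 in controls. P4ha3 had 10.1% ± 1.83 at day 14 and 12.6% ± 7.98 at day 28, the day-28 libraries spanning 5.34% to 21.2%. Plod2 made up 46.7% ± 10.9 of the lysyl hydroxylases, with Plod3 counted in, at day 7, against 24.6% ± 5.19 in controls, and its lowest day-7 share, 34.2%, lay above the highest control, 29.3%.

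The lysyl oxidases, with Loxl4 counted in, summed to 719.2 ± 94.5 TPM at day 7, against 134.2 ± 6.38 TPM in controls. Lox made up 40.3% ± 11 of the sum at day 7, against 25.1% ± 3.15 in controls, and day-7 replicate 1 held 27.9%, which was also the highest control share. Loxl1 made up 39.0% ± 2.27 at day 14 and 39.9% ± 2.16 at day 28, against 24.3% ± 2.73 in controls, and neither day overlapped the controls. Loxl2 had 26.7% ± 0.387 at day 14 and 22.6% ± 2.47 at day 28, against 34.0% ± 1.37 in controls, all below the control range. No test was run on the shares.

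**Figure D3:**
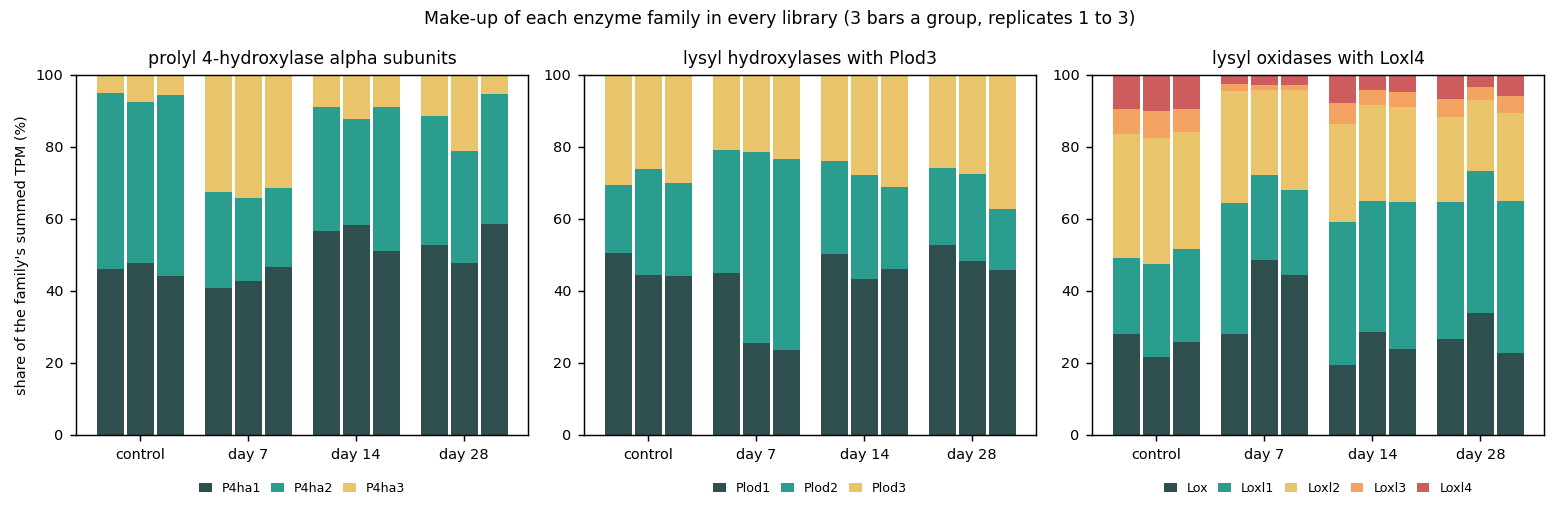
Share of each gene in the summed TPM of its family (vertical axis, percent) in every library, with 3 bars a group for replicates 1 to 3. P4ha3 takes 31.4% to 34.2% of the prolyl 4-hydroxylase subunits at day 7 and 5.19% to 7.51% in controls, and Loxl1 takes 36.5% to 42.3% of the lysyl oxidases at day 14 and day 28 and 21.2% to 26% in controls.

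The most abundant substrates, the fibrillar collagens, were above controls at day 7 and below them later. Counts of 5 fibrillar collagens (Col1a1, Col1a2, Col3a1, Col5a1 and Col5a2) summed to 32820, 42180 and 40540 CPM at day 7, against 23490, 17560 and 20920 CPM in controls. They summed to 8331, 11720 and 12720 CPM at day 14 and 10190, 15400 and 6398 CPM at day 28. All day-7 libraries stood above the controls, and all day-14 and day-28 libraries below them.

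Per 10000 of those collagen counts in the same library, Lox had 140, 248 and 252 counts at day 7, against 38.4, 44.7 and 42.9 in controls. The mean log2 ratio of Lox was 2.30 higher at day 7 (exact permutation test, two-sided, p = 0.1, the smallest that 3 against 3 libraries can give). At day 7 the ratio was above all controls for 5 members (P4ha3 by 2.45, Lox by 2.30, Loxl1 by 1.82, Plod2 by 1.54 and Loxl2 by 1.33 on the log2 scale) and below all controls for P4ha2 (-0.997), each with p = 0.1 in the same exact test. Of all tested genes, 6.39% had a ratio above all controls at day 7 and 67.8% one below, and the median of all genes was -0.91. For Serpinh1 (0.18), P4ha1 (-0.07), Plod1 (-0.001) and Loxl3 (-0.44) the groups overlapped (exact p 0.2 to 1).

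At day 14 the ratio to fibrillar collagen was above the controls for all 10 members, but so it was for 70.2% of all tested genes, whose median was 0.93 on the log2 scale, and the summed collagen counts of all 3 libraries were below those of controls. At day 28 it was above for 7 members and 60.6% of all genes, whose median was 1.03. Loxl1 had the largest differences, 1.98 at day 14 and 1.95 at day 28 (exact p = 0.1). Loxl1 had 85.4, 56.1 and 62.3 counts per 10000 at day 7, 70.4, 78.2 and 76.2 at day 14 and 70.2, 76.5 and 73.2 at day 28, against 13.6, 24.9 and 20.3 in controls. All 9 injured libraries lay above the controls, and the values of the 3 days overlapped.

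**Figure D4:**
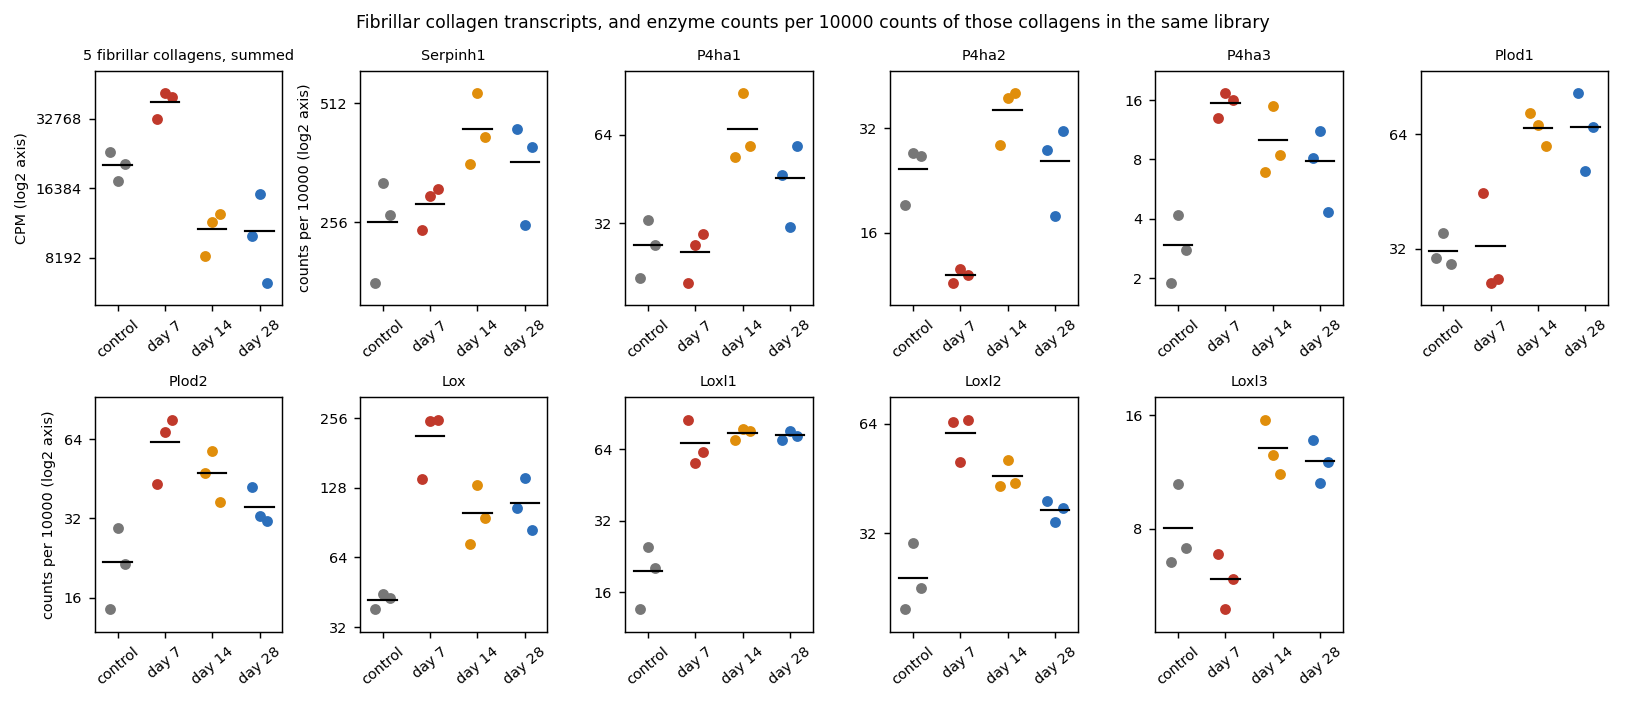
CPM summed over 5 fibrillar collagens (top left panel) and counts of each enzyme per 10000 counts of those collagens (other panels) in every library, on log2 axes, with lines at arithmetic group means. The Loxl1 points of the 3 injured groups lie between 56.1 and 85.4, and the controls between 13.6 and 24.9.

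Other genes of collagen processing rose at day 7 as well. Of 27 such genes, 26 were tested, and 18 were higher at day 7 and 1 lower. In this comparison 15.6% of all tested genes were higher and 10.5% lower. Among the 26 the median log2 change was 0.80, against -0.00571 over all tested genes. Those with the smallest p were the collagen galactosyltransferase Colgalt1 (1.10 ± 0.13), the procollagen N-proteinase Adamts14 (2.23 ± 0.33), the beta subunit P4hb of prolyl 4-hydroxylase (0.85 ± 0.12) and the prolyl 3-hydroxylase P3h1 (1.27 ± 0.19), with adjusted p of 0.0002785, 0.0007257, 0.0007561 and 0.0008288. The gene that fell was Tmem38b, a cation channel of the endoplasmic reticulum (log2 change -1.12 ± 0.23, adjusted p = 0.004382). None of the 26 was called at day 14, where the median was -0.25. At day 28, 1 was higher, the procollagen N-proteinase Adamts3 (1.05 ± 0.26, adjusted p = 0.01712). The 3 lower genes were the transcription factor Creb3l1 (-0.74), the lysyl oxidase Loxl4 (-0.70) and P3h4, a partner of the lysyl hydroxylase Plod1 (-0.59). The median was -0.25. Of all tested genes, 11% were called higher and 7.51% lower at day 28. With 26 genes, counts of 1 and 3 are not far from those shares.

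Among 13 substrates, 11 were higher at day 7 and none lower (15.6% and 10.5% of all tested genes), with a median of 1.81. The basement membrane chains Col4a2 (2.52 ± 0.23) and Col4a1 (2.70 ± 0.25), elastin (Eln, 4.21 ± 0.60) and Col5a1 (1.81 ± 0.28) had the smallest p (7.986e-05, 8.536e-05, 0.0006272 and 0.0009255). The main fibrillar chains Col1a1 (0.90 ± 0.31, adjusted p = 0.05092) and Col3a1 (0.78 ± 0.27, adjusted p = 0.05159) just missed the threshold. Col4a1 and Col4a2 were still higher at day 14 (1.03 and 0.98) and day 28 (0.82 and 0.83), while Col1a1 (-1.14) and Col1a2 (-0.76) were lower at day 28. At day 14, those 2 differed from control by -1.13 and -0.88 without passing the test (adjusted p 0.08475 and 0.06229). Of all tested genes, 11% were called higher and 7.51% lower at day 28.

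Of 18 genes for chaperones of the endoplasmic reticulum and the unfolded protein response, 12 were higher at day 7 and none lower. The shares of all tested genes were 15.6% and 10.5%, and the median of the 18 was 0.79. Sdf2l1, a component of the chaperone complex of the endoplasmic reticulum, had 1.45 ± 0.26 (adjusted p = 0.002117), and the protein disulfide isomerase Pdia6 0.98 ± 0.19 (adjusted p = 0.003094). None was called at day 14, and Sdf2l1 alone was called at day 28 (1.11 ± 0.26, adjusted p = 0.01191). Of 18 hypoxia response genes, 6 were higher and 2 lower at day 7, with a median of 0.37, and the count of lower genes is near the 10.5% of all tested genes that were called lower at day 7. The carbonic anhydrase Car9 (3.92 ± 0.79), the enolase Eno1 (0.83 ± 0.17) and the lactate dehydrogenase Ldha (0.97 ± 0.21) rose at day 7, and Egln3, a hydroxylase of the hypoxia-inducible factors, fell (-1.36 ± 0.23). None of the 18 was called at day 14, and 3 were higher at day 28, Vegfa (0.74), Slc2a1 (0.85) and Hk2 (0.78), of which Vegfa had fallen at day 7 (-0.48). At day 28, 11% of all tested genes were called higher.

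Of 7 growth factors known to drive fibrosis, 6 were tested and 5 were higher at day 7 (15.6% of all tested genes), with a median of 1.62. Tgfb1 rose by 1.67 ± 0.13 on the log2 scale (adjusted p = 4.096e-05), Inhba, a subunit of activin A, by 3.70 ± 0.52 (adjusted p = 0.0005742), Tgfb3 by 2.53 ± 0.41 (adjusted p = 0.001365) and Pdgfb by 1.57 ± 0.30 (adjusted p = 0.003076). Tgfb1 was still higher at day 14 (0.83 ± 0.13, adjusted p = 0.01498) and day 28 (1.39 ± 0.13, adjusted p = 0.0001008). None of the other 5 was called at either day, and the part of any of these factors in the enzyme levels was not tested.

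Markers of several cell types moved at the same times. Of all tested genes, 15.6% were called higher and 10.5% lower at day 7, and 1.45% and 0.995% at day 14. At day 28 these shares were 11% and 7.51%. Myofibroblast markers (Postn, Tnc, Cthrc1 and Acta2, the last also a marker of smooth muscle) summed to 7185 to 8656 CPM at day 7, against 2648 to 2987 CPM in controls, and 4 of 4 were higher. At day 14 they summed to 2955 to 3927 CPM and at day 28 to 1339 to 2482 CPM, sums in which Acta2 is the most abundant. Cthrc1, a secreted protein of activated fibroblasts, was called higher at day 14 (2.07 ± 0.44 on the log2 scale, adjusted p = 0.03775) and day 28 (2.47 ± 0.44, adjusted p = 0.003356), and the other 3 were not called at those days. Fibroblast markers summed to 2301 to 3943 CPM at day 7, against 3222 to 4224 CPM in controls. Dcn was the most abundant of them in every library, and its log2 change at day 7 was -0.90 ± 0.32 (adjusted p = 0.05816). At day 7, 3 of 7 were higher, Thy1 (2.34), Pdgfrb (1.46) and Pi16 (1.34), and none was called lower. Fibroblast markers summed to 1968 to 3157 CPM at day 14 (1 of 7 lower) and 2026 to 2962 CPM at day 28 (2 higher and 1 lower). Endothelial markers summed to 537.5 to 618.2 CPM at day 7, 179 to 328 CPM at day 14 and 260.2 to 420.5 CPM at day 28, against 157.2 to 176.4 CPM in controls. Of these 6, all were higher at day 7, none was called at day 14 (edgeR) and 5 were higher at day 28 (Kdr, Erg, Cdh5, Pecam1 and Vwf).

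Smooth muscle markers summed to 25240 to 41540 CPM at day 7 and 9908 to 21530 CPM at day 28, against 22960 to 25380 CPM in controls, with 4 of 7 higher and 1 lower at day 7 and 2 lower at day 28. Urothelial markers summed to 3258 to 3944 CPM at day 7, 4494 to 5041 CPM at day 14 and 3527 to 4444 CPM at day 28, against 5225 to 5981 CPM in controls. Of these 8, 6 were lower at day 7, 1 at day 14 and 4 at day 28, where Krt20, a keratin of the surface cells, differed by -5.88 ± 0.37 on the log2 scale (adjusted p = 2.227e-05). Macrophage markers summed to 538.0 to 639.9 CPM at day 7, 306.9 to 443.4 CPM at day 14 and 627.7 to 815.1 CPM at day 28, against 189.4 to 222.6 CPM in controls, with 7 of 7 higher at day 7 and at day 28 and 5 of 7 at day 14. Proliferation genes summed to 361.3 to 495.1 CPM at day 7, 24.8 to 32.6 CPM at day 14 and 53.6 to 160.2 CPM at day 28, against 19.7 to 45.2 CPM in controls (5 of 5 higher at day 7 and 4 of 5 at day 28). Erythroid transcripts summed to 487.3 to 9279 CPM at day 7, against 193.3 to 852.2 CPM in controls, and all 4 tested were higher at day 7 although the sums overlapped. Of 4 mesothelial markers, 1 was lower at day 28 and none was called at day 7 or day 14. The part of these cell types in the enzyme levels was not tested.

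Across the 12 libraries the enzymes' log2 CPM were correlated in most pairs, as a description of libraries that share their group. Pearson's r ran from 0.198 (P4ha2 with Loxl1) to 0.971 (P4ha3 with Lox, and Plod2 with Loxl2) over 45 pairs, with a median of 0.842, and 27 pairs were above 0.8. Genes like the enzymes were sought among 11078 candidates with a mean of at least 5 CPM. Left out were the members themselves and genes with symbols beginning LOC, RGD, AABR or ENSRNO. Most like the average of the enzymes were Fam114a1 (r = 0.986), Flrt2 (0.984), Lamc1 (0.984), Mfap5 (0.982), Emp3 (0.982) and Fstl1 (0.982). Of the candidates, the nearest gene to Loxl2 was Map4 (r = 0.991), to Lox Thbs4 (0.987), to Loxl1 Ltbp2 (0.986), to Plod2 Col12a1 (0.985) and to P4ha3 Dpysl2 (0.979). For Serpinh1 it was Praf2 (0.977), for Loxl3 Smoc2 (0.958), for Plod1 Fgfr1 (0.953), for P4ha2 Nudc (0.948) and for P4ha1 Dph3 (0.947). Ltbp2, a protein of elastic fibres, differed from control by 6.84 at day 7, 2.79 at day 14 and 3.34 at day 28 on the log2 scale, while Loxl1 differed by 2.70, 1.07 and 1.00. Thbs4 differed by 3.96, 0.24 and 0.58, and Lox by 3.29, 0.38 and 0.55. Each r rests on 12 libraries in 4 groups, and r within groups was not computed.

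Serpinh1 and P4ha3 lie on the same chromosome, with 0.988 Mb between them on rn6, and Plod2 and Loxl1 share chromosome 8 at 36.9 Mb. On rn6, with the strand in parentheses, the deposited table places P4ha1 at chr20:28920616-28972576 (plus), P4ha2 at chr10:39435227-39464134 (plus), P4ha3 at chr1:165295835-165330922 (plus) and Plod1 at chr5:164720629-164747071 (minus). It places Plod2 at chr8:99977334-100059736 (plus), Lox at chr18:47500320-47577819 (minus), Loxl1 at chr8:63067757-63092124 (minus), Loxl2 at chr15:51276022-51365238 (plus) and Loxl3 at chr4:113866782-113883713 (plus).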

How the data were processed

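Per the labels, ribosomal RNA was depleted from total bladder RNA, and single reads of 50 bases were sequenced by Illumina. Tools listed in the submitters' processing notes, without roles, are HISAT2 2.1.0, bcl2fastq and HTSeq 0.11.2, with build rn6. Per the file headers, the authors deposited raw read counts, per gene and per mRNA isoform. The authors also deposited TPM, with gene lengths in bases in the same file. The strand setting of the counts was not found in the labels or headers.

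Genes passing edgeR's filterByExpr (minimum count 10, minimum total 15) were scaled by TMM and fitted with 1 quasi-likelihood model over all 12 libraries (edgeR 4.0.16, R 4.3.3, data.table version 1.17.8). P-values were adjusted by Benjamini-Hochberg over all 17687 genes within a comparison, with calls at an adjusted p under 0.05. SE was taken as the size of the log2 change over the square root of its F statistic. Log2 changes come from TMM-scaled counts, so folds of TPM differ from them somewhat. For ratios, member counts were divided by summed collagen counts and compared by an exact permutation test. Alternatives were DESeq2 1.42.0, RLE size factors, a filter at a mean of 5 CPM, no expression filter, only the groups compared in the fit, a replicate block, other collagens as denominator, and each library left out. The tests were checked on simulated data for day 7 against control, with a dispersion of 0.05. Of genes changed by 2 on the log2 scale in either direction, 96% to 100% were called. At a change of 1, 54% to 56% were called, and of unchanged genes 0.0457%. These rates belong to the simulated setting and may not hold for the members. In the data, 2757 genes were called higher and 1865 lower at day 7, and the members' SE ran from 0.22 (Loxl3) to 0.58 (P4ha3). Promoters came from RefSeq (GRCr8), matched by symbol for 8 of 10 members. Plots used Python 3.11.15 and matplotlib 3.10.9. All 10 members are named, and from each list up to 4 genes with the smallest p, besides a few singled out after their values were seen. The members, lists and named genes were chosen with earlier results of these data known.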

Additional observations from a re-analysis of the deposited data

Results flagged for a closer look

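The change against control differed between days for most of the enzymes, by the test of the difference itself (day against day in the same edgeR model, where the shared controls cancel). Between day 14 and day 7 the change differed for Serpinh1 (-1.17 on the log2 scale), P4ha3 (-2.41), Plod1 (-0.76), Plod2 (-2.26), Lox (-2.91), Loxl1 (-1.64) and Loxl2 (-2.19). Between day 28 and day 7 it differed for Serpinh1 (-1.61), P4ha1 (-1.17), P4ha2 (-0.88), P4ha3 (-2.68), Plod1 (-0.83), Plod2 (-2.71), Lox (-2.74), Loxl1 (-1.70), Loxl2 (-2.56) and Loxl3 (-0.81). All were lower at the later day. These are the comparisons with day 7 given above, where 12% of all tested genes were lower at day 14 and 10.8% at day 28. Members whose call was lost with a library left out, Plod1 among them, are named there. With 3 libraries a group, no group was large enough for a check of outlying libraries.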

How the results depend on the processing

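Over 12 alternatives each, the day-7 rises of P4ha3, Plod1, Plod2, Lox, Loxl1 and Loxl2 stayed called, as did the falls of Lox, Loxl1, Loxl2, P4ha3 and Plod2 at day 14 and day 28 against day 7. With a library left out, 6 to 8 members were higher at day 7, 0 to 1 at day 14 and 0 to 1 at day 28, 0 to 1 were lower at day 28, and 5 to 6 at day 14 and 7 to 10 at day 28 were lower than at day 7, and 0 to 1 lower at day 28 than at day 14.

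Loxl1 was higher at day 14 with no expression filter, with only the groups compared and with DESeq2 (1 each), and 0 were higher at day 28 with only the groups compared. Among all genes, against 257 higher and 176 lower at day 14, there were 412 higher with no filter, 160 higher and 91 lower at a mean of at least 5 CPM, 340 lower with only the groups compared, and 832 higher and 528 lower with DESeq2. With only the groups compared, 708 genes, against 1343, were higher at day 14 than at day 7. Between day 28 and day 14, where 553 were higher and 215 lower, there were 28 and 14 with only the groups compared, and 1089 and 558 with DESeq2. With a library left out, genes higher and lower numbered 1930 to 2798 and 1077 to 2090 at day 7, 6 to 387 and 10 to 117 at day 14 (lowest without control replicate 2), and 1209 to 1936 and 760 to 1347 at day 28, against control. Between days they numbered 643 to 1349 and 1316 to 2082 (day 14 against day 7), 742 to 1373 and 1212 to 1902 (day 28 against day 7), and 197 to 773 and 64 to 347 (day 28 against day 14). The cause was not tested.

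With a library left out, the sign changed for some log2 changes that were not called. At day 7 against control P4ha2 ran from -0.203 to 0.0352. At day 14 against control Loxl2 ran from -0.088 to 0.249, Plod2 from -0.000738 to 0.405 and Serpinh1 from -0.302 to 0.191. At day 28 against control Lox ran from -0.101 to 0.913, P4ha3 from -0.0877 to 1.12, Plod1 from -0.0958 to 0.33 and Plod2 from -0.468 to 0.1. Against day 7, P4ha2 at day 14 ran from -0.407 to 0.0679. At day 28 against day 14 Lox ran from -0.478 to 0.536, Loxl1 from -0.477 to 0.201, Loxl3 from -0.365 to 0.121, P4ha3 from -1.03 to 0.197 and Plod1 from -0.254 to 0.178.

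Same-numbered libraries of different groups deviated together weakly or not at all (r -0.022 to 0.151 over 18 pairs, 5 above 0.1). All 5 were between injured groups, where different-numbered libraries had r of -0.209 to 0.104. Whether the numbers pair the libraries cannot be settled from these values. With the replicate number as a block, 8 members were higher at day 7, 0 at day 14 and 1 at day 28, 1 was lower at day 28, 7 were lower at day 14 and 10 at day 28 than at day 7, and no member's call changed. Without the block, 15.6%, 1.45% and 11% of all tested genes were higher at those days, and 7.51% were lower at day 28. Against day 7, 12% were lower at day 14 and 10.8% at day 28. Shares of all genes with the block are not given here. At this depth all 10 members passed the filter on low counts.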
